A study of Mus musculus with 18 samples.

Results

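The genes for glucose transporters of the Slc2a family and for enzymes of the pentose phosphate pathway were followed in erythroblasts of mice with mutant Klf1. The 9 genes described, 4 transporters and 5 enzymes, were chosen by name from the 23365 rows of the count table, and all 9 passed the filter on low counts that left 13405 genes to test. The choice states no contrast or threshold, but it was made with earlier results of these data known, so the tests below describe these libraries and are no independent evidence for a choice of genes. KLF1 is a zinc finger protein that switches on red cell genes, and MommeD45 (D45) is a missense allele of Klf1 in linker-2, between 2 of its zinc fingers. KO is a knockout allele and WT the wild-type allele.

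RNA-seq was made from erythroblasts sorted from mouse spleen as positive for TER119, a red cell surface marker, and for the transferrin receptor CD71. There were 4 libraries from D45/KO compound heterozygotes, 3 from D45/D45 homozygotes, 5 from WT/KO mice, 3 from WT/D45 mice and 3 from WT/WT mice. No treatment separates the groups, and the sources used here give neither age nor sex. The submitters call the replicates biological and describe haemolytic anaemia, an enlarged spleen and more erythroid progenitors in compound heterozygotes, so the D45 allele beside a KO allele and the anaemia of these mice cannot be told apart.

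Red cells have no mitochondria when mature and take up glucose by facilitated diffusion through GLUT proteins. GLUT1, encoded by Slc2a1, is the main glucose transporter of human red cells, while red cells of adult mice are known to carry GLUT4, encoded by Slc2a4 and otherwise known as the insulin-responsive transporter of muscle and fat. Part of the glucose enters the pentose phosphate pathway. Its oxidative branch (here Pgls and Pgd) makes NADPH, which keeps glutathione reduced and protects haemoglobin and the membrane from oxidants, and its non-oxidative branch (Rpia, Tkt, Taldo1) makes ribose phosphate for nucleotides and returns carbon to glycolysis.

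Libraries held between 9.36 and 56.3 M counts, with a median of 29.8 M, and TMM factors ran from 0.366 to 1.93. Tfrc, which encodes CD71, was at 711 to 4641 CPM (counts per M counts on the adjusted library size) over all genotypes. Transcripts of B cells divided the libraries: the mean log2 CPM of 13 B cell markers was 3.63 to 7.07 in 9 libraries (called high in B cell markers here) and -2.65 to -0.77 in the other 9 (called low). The high libraries were 3 of 4 D45/KO, 1 of 3 D45/D45, 3 of 5 WT/KO, 1 of 3 WT/D45 and 1 of 3 WT/WT libraries. In the count table the 9 high libraries were the first 9 columns and the 9 low ones the last 9. B cell marker level and any other difference that follows this order cannot be told apart, also in the fits below that use this level. The share of all genes that differed between high and low libraries was not counted. Globin transcripts took 6.28% to 19.1% of counts in high libraries and 14.1% to 47.2% in low ones, where the 14.1% was the single low D45/KO library and the other 8 had at least 18.7%. The summed level of 8 megakaryocyte markers was 428 to 816 CPM in D45/KO, 216 to 618 CPM in D45/D45, 59.97 to 264 CPM in WT/KO, 47.7 to 174 CPM in WT/D45 and 38.0 to 205 CPM in WT/WT. Of these markers Itga2b (324 to 654 CPM in D45/KO, 8.39 to 137 CPM in WT/WT), Vwf (64.8 to 111 and 11.8 to 46.6 CPM) and Gp9 (26.7 to 52.9 and 11.7 to 24.6 CPM) lay above WT/WT in every D45/KO library. The platelet genes Pf4 and Ppbp were at 3.42 CPM or less in every library of every genotype. Klf1 itself was at 282 to 763 CPM in D45/KO, 710 to 1576 CPM in D45/D45, 158 to 834 CPM in WT/KO, 551 to 1295 CPM in WT/D45 and 452 to 1047 CPM in WT/WT, ranges that overlap and check the labels only in part. In bulk RNA, fewer cells of a type and less RNA per cell cannot be told apart.

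KLF1 binds CACCC-type boxes, so the 250 bases before the start of each gene were scanned for CCNCNCCC on both strands, letters that GC boxes of the wider Sp and KLF factors share. RefSeq sequence of the GRCm38.p6 build was matched for 7 of the 9 genes. The pair shown belongs to the enzymes with the highest levels per kilobase, with the KLF-type matches in capitals. They lie at chr14:30548881-30549130 on the plus strand (Tkt) and at chr7:141391910-141392159 on the plus strand (Taldo1).
Tkt: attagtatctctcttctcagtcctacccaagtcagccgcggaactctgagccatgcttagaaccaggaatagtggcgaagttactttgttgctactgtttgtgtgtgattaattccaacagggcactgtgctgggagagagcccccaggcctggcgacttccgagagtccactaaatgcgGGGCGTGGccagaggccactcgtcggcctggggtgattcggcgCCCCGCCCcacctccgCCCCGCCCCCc
Taldo1: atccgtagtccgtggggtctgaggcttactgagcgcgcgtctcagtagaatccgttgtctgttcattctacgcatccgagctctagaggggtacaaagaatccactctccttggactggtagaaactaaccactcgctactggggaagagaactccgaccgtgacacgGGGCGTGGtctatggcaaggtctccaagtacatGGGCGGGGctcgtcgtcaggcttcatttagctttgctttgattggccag
The Tkt window held 4 matches, some of which overlap one another, and the Taldo1 window 2. Slc2a1, Pgd and Rpia also had a match, and Slc2a8 and Pgls had none in these windows. The same letters occurred in 45.9% of all 32851 promoters scanned, so their presence is not particular to these genes. The letters TGACNNNGC of the antioxidant response element and the GATA letters AGATAA had no match in the windows of these genes. They occurred in 10.2% and 9.99% of all promoters.

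Per kilobase of exon, the median level over the 18 libraries was highest for Taldo1 (491 CPM per kb), followed by Tkt (108), Rpia (38.3), Slc2a4 (19.4), Pgd (10.2), Pgls (8.03), Slc2a3 (2.47), Slc2a8 (2.11) and Slc2a1 (0.530). Taldo1 was above Tkt and Tkt above Rpia in 18 of 18 libraries. Rpia was above Slc2a4 in 13 libraries, Slc2a4 above Pgd in 11 and Pgd above Pgls in 11, so these neighbours were not separated. Pgls was above Slc2a3 in 18 libraries, Slc2a3 above Slc2a8 in 13 and Slc2a8 above Slc2a1 in 14.

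**Figure D1:**
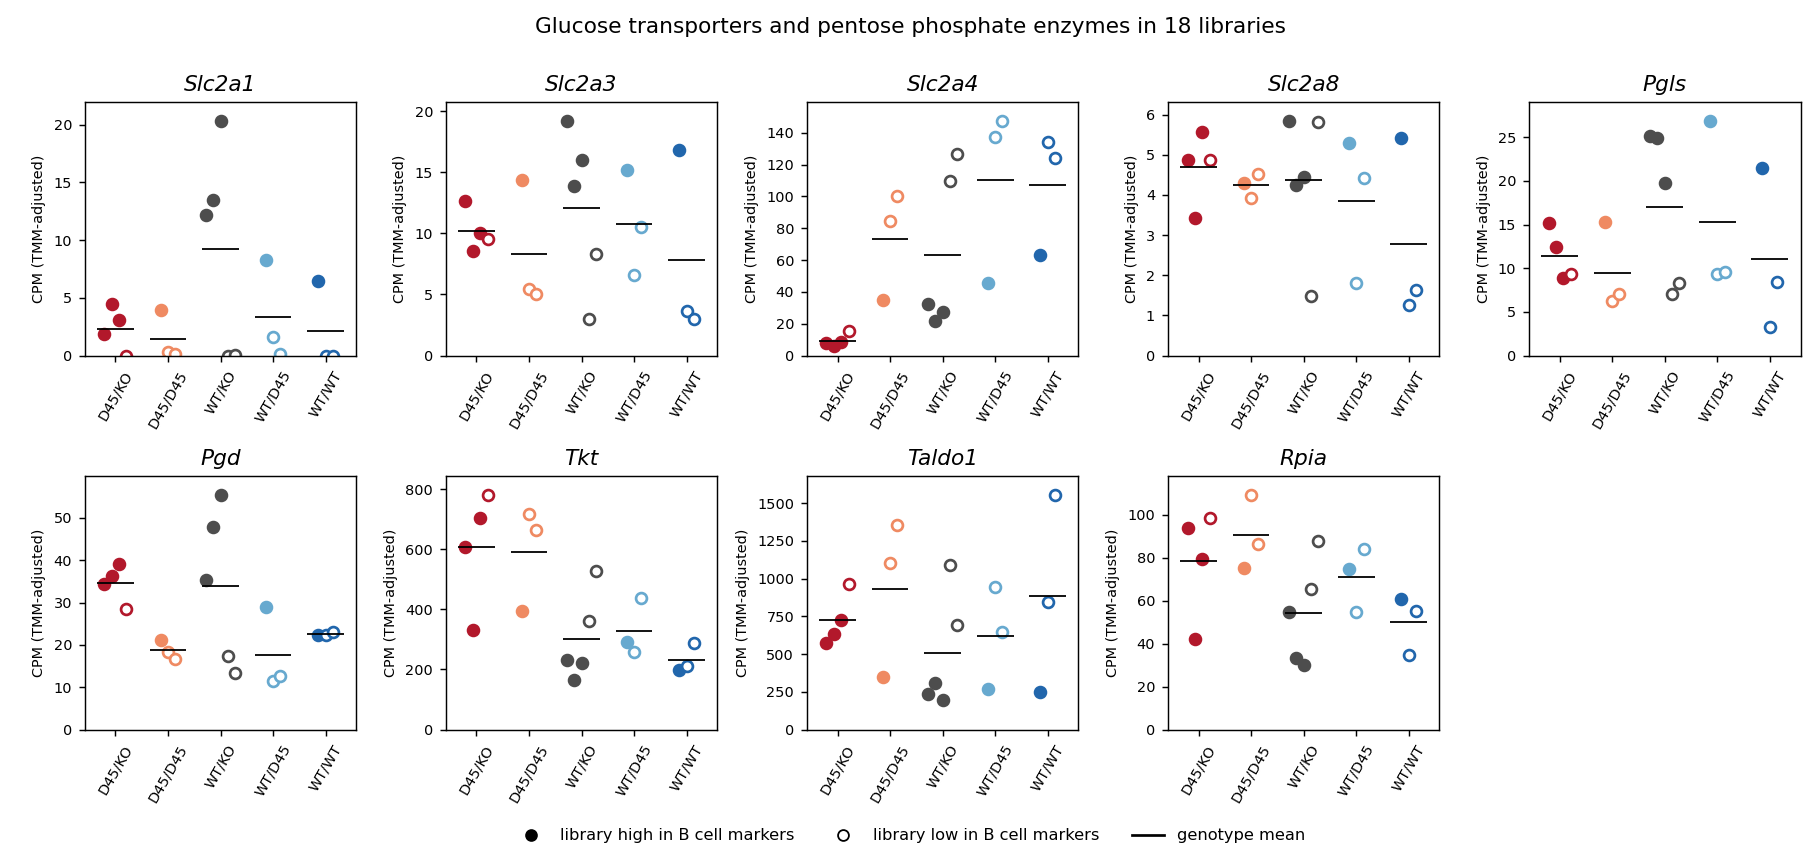
Level of each of the 9 genes in CPM on TMM-adjusted library sizes (vertical axis) in each of the 18 libraries, by genotype. Filled points are libraries high in B cell markers, open points libraries low in them, and lines are genotype means; for Slc2a4 the 4 D45/KO points, at 6.01 to 15.3 CPM, lie under every other point.

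Slc2a4, the GLUT4 gene, was low in D45/KO. The 3 high D45/KO libraries had 7.79, 6.01 and 8.44 CPM and the low one 15.3 CPM. D45/D45 had 34.6 CPM in its high library and 84.6 and 100.3 CPM in its low ones. WT/KO had 32.2, 21.7 and 27.5 CPM in its high libraries and 109.6 and 126.5 CPM in its low ones. In every genotype the low libraries had more Slc2a4 than the high ones, and all 4 D45/KO libraries were under all 14 others. WT/D45 had 45.7 CPM in its high library and 137 and 148 CPM in its low ones, and WT/WT had 63.5 CPM in its high library and 134 and 124 CPM in its low ones. Of the 13405 genes tested, 0.269% had all 4 D45/KO libraries under all others in this way and 0.567% had them above.

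Against WT/WT, Slc2a4 averaged 9.38 ± 4.05 CPM in D45/KO (SD, n = 4) and 107 ± 38.3 CPM in WT/WT (n = 3), a log2 fold change of -3.52 ± 0.64 (SE), and it fell by edgeR's quasi-likelihood test (Benjamini-Hochberg adjusted p = 0.0178). It was the only 1 of the 9 genes called, against 0.619% of all genes called in this comparison, and 2 of the 9 had an unadjusted p under 0.05, as 8.93% of all genes did. Leaving out a single library kept the log2 fold change between -3.86 and -3.32 but ended the call in 5 of 7 fits (without D45/KO replicate 1, 2 or 3, or without WT/WT replicate 2 or 3), with edgeR adjusted p-values up to 0.0808. Once the level of B cell markers entered the fit as a covariate, the log2 fold change was -3.23 ± 0.21 (adjusted p = 3.38e-08). In the low libraries alone it was -3.09 ± 0.35 and in the high ones alone -3.16 ± 0.38 (edgeR adjusted p = 3.02e-05 and 0.0125, where 2.35% and 0.0684% of all genes were called). The fit of low libraries has 1 D45/KO and 2 WT/WT libraries, and that of high libraries 3 D45/KO and 1 WT/WT library. In each fit the single library is assumed to vary like the other groups, so the p-value has no replicate behind that genotype. The single low D45/KO library also had the smallest globin share of the low libraries, and the part of this in its Slc2a4 level was not tested. Summed over 12 erythroid markers, the level was 55794 to 115564 CPM in D45/KO. In WT/KO it was 29778 to 409715 CPM and in WT/WT 43680 to 755735 CPM. With genotype alone 0 of the 12 were called in D45/KO against WT/KO or WT/WT, beside 0.172% and 0.619% of all genes. Their log2 fold change was positive for 10 of the 12 against WT/KO (median 0.19) and for 3 against WT/WT (median -0.30). With the covariate 1 of the 12 was called higher and 0 lower in each comparison, beside 2.83% and 4.13% of all genes. The part of erythroid content in the Slc2a4 level was not tested.

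Against WT/KO, which shares the KO allele and differs in the other allele, Slc2a4 averaged 9.38 ± 4.05 CPM over the D45/KO libraries (SD, n = 4) and 63.5 ± 50.3 CPM over those of WT/KO (n = 5). The log2 fold change was -2.76 ± 0.59 (SE), and it did not pass edgeR's test (adjusted p = 0.101). None of the 9 genes did, where 0.172% of all genes were called, while 2 of the 9 had an unadjusted p under 0.05, as 5.41% of all genes did. DESeq2 called 1 of the 9, Slc2a4, and limma-voom 0, among 185 and 67 genes called, where edgeR called 23. Given the covariate, Slc2a4 had -2.61 ± 0.19 and passed (adjusted p = 3.03e-07, among 2.83% of all genes called). In the high libraries alone, 3 of each genotype, it also passed (-1.83 ± 0.30, edgeR adjusted p = 0.0113, among 7.55%). The low libraries alone gave -2.91 ± 0.34 (edgeR adjusted p = 9.73e-05, among 0.335%), again with 1 D45/KO library and no replicate behind it. The high D45/KO libraries had B cell marker levels of 3.63 to 5.73 and the high WT/KO libraries of 6.83 to 7.07, so high libraries of the 2 genotypes are not matched in this level.

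In the genotypes with a single mutant allele or 2 D45 alleles, Slc2a4 was not called. Its log2 fold change against WT/WT was -0.55 ± 0.66 (SE) in D45/D45, -0.76 ± 0.57 in WT/KO and 0.04 ± 0.65 in WT/D45 (edgeR adjusted p = 1, 0.818 and 1). The 4 D45/KO libraries lay under all 3 D45/D45 libraries, as for 2.29% of all genes. The difference between the D45 effect beside a KO allele and beside a WT allele was tested after the data had been seen. For Slc2a4 it was -2.80 ± 0.87 on the log2 scale and not called by edgeR (adjusted p = 1, unadjusted p = 0.00511, with 0.00746% of all genes called). In the covariate fit it was -2.50 ± 0.29 and called (edgeR adjusted p = 0.000342, with 0.172% of all genes called). All of these comparisons share either the D45/KO or the WT/WT libraries with one another.

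Slc2a1, the GLUT1 gene, followed the B cell markers. The D45/KO libraries had 1.85, 4.46, 3.04 and 0 CPM, with 0 in the low library. D45/D45 had 3.98 CPM in its high library and 0.286 and 0.167 CPM in its low ones, and WT/KO had 12.2, 13.5 and 20.3 CPM in its high libraries and 0 and 0.0670 CPM in its low ones. WT/D45 had 8.31 CPM in its high library and 1.60 and 0.165 CPM in its low ones. WT/WT had 6.47 CPM in its high library and 0 counts in both low ones. High and low libraries did not overlap, at 1.85 to 20.3 CPM and 0 to 1.60 CPM. The share of all genes that separated in this way was not counted. The summed 12 erythroid markers did not overlap either, at 29778 to 83390 CPM in high and 115564 to 755735 CPM in low libraries. In the 4 libraries with 0 counts of Slc2a1, 3 counts set upper limits of 0.0865 to 0.350 CPM. The fitted log2 fold changes were -1.98 ± 1.83 (SE) in D45/KO against WT/KO and 0.08 ± 1.98 against WT/WT (edgeR adjusted p = 0.927 and 0.999). In the high libraries alone Slc2a1 was lower in D45/KO than in WT/KO (-2.24 ± 0.49, edgeR adjusted p = 0.0261), where 7.55% of all genes were called and the B cell marker level was lower as well. The part of B cell transcripts in that difference was not tested.

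Slc2a3 (GLUT3, a high-affinity transporter of neurons and white blood cells) and Slc2a8 (GLUT8, an intracellular hexose transporter) were low throughout. Slc2a3 ranged from 8.60 to 12.6 CPM in D45/KO, 5.01 to 14.4 in D45/D45, 3.03 to 19.2 in WT/KO, 6.62 to 15.2 in WT/D45 and 3.03 to 16.8 in WT/WT. Its median was 14.4 CPM in the libraries high in B cell markers and 5.43 CPM in the low ones. Its log2 fold change was -0.25 ± 0.57 (SE) in D45/KO against WT/KO and 0.37 ± 0.65 against WT/WT. Slc2a8 ranged from 3.43 to 5.57 CPM in D45/KO, 3.93 to 4.51 in D45/D45, 1.48 to 5.84 in WT/KO, 1.82 to 5.28 in WT/D45 and 1.27 to 5.41 in WT/WT, with log2 fold changes of 0.10 ± 0.53 and 0.74 ± 0.61 in D45/KO against WT/KO and WT/WT. Neither gene was called in any of the 5 comparisons, and their D45/KO libraries overlapped those of every other genotype.

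With the 4 transporters set on a common scale per kilobase, Slc2a4 held 29.3% to 53.5% of their sum in D45/KO. It held 64.2% to 91.2% in D45/D45, 44.2% to 96.4% in WT/KO, 64.7% to 94.2% in WT/D45 and 72.0% to 96.9% in WT/WT. Among low libraries the single D45/KO value was 53.5%, against 90.1% to 96.9% in the other 8, and among high ones the 3 D45/KO values were 29.3% to 33.0%, against 44.2% to 72.0% in the other 6. The share was therefore lowest in D45/KO within each kind of library. The sum includes Slc2a4, so the share and the summed level repeat its low level in part and are no separate result. Slc2a1 and Slc2a3, also in the sum, had a Pearson r of 0.92 and 0.78 with the B cell marker level over the 18 libraries. The summed level of the 4 genes was 7.31 to 10.2 CPM per kb in D45/KO and 17.4 to 57.4 CPM per kb in the other genotypes.

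**Figure D2:**
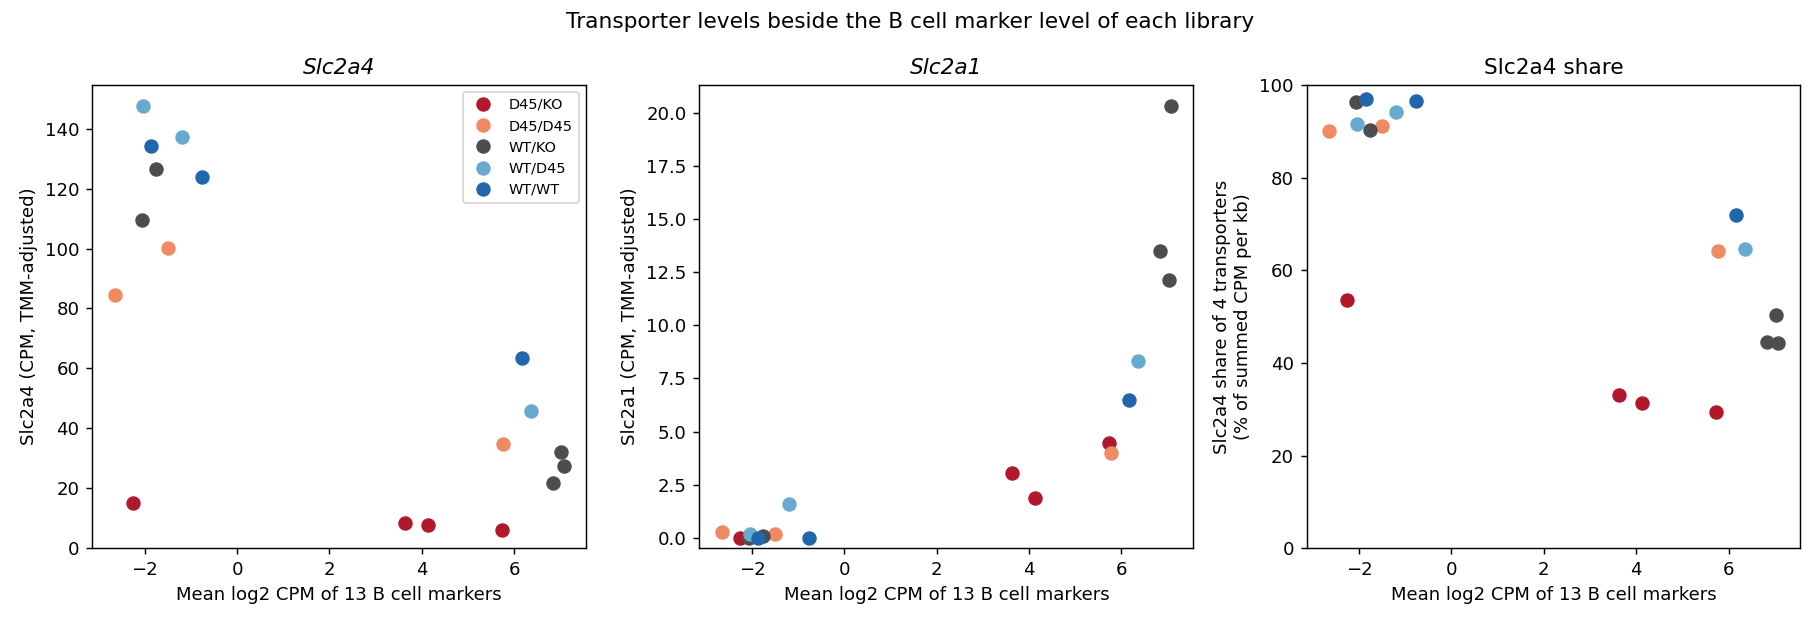
Slc2a4 (left) and Slc2a1 (middle) in CPM on TMM-adjusted library sizes and the Slc2a4 share of the 4 transporters in percent of their summed CPM per kb (right), against the mean log2 CPM of 13 B cell markers, 1 point per library and coloured by genotype. Slc2a4 in D45/KO is at 15.3 CPM in the library at -2.25 on the horizontal axis and at 6.01 to 8.44 CPM in those at 3.63 to 5.73. Other genotypes reach 7.07 on that axis. Slc2a1 is at 1.60 CPM or less in all libraries low in B cell markers.

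Pgls, a lactonase, and Pgd, an NADPH-making dehydrogenase of the same branch, were on average higher in high than in low libraries in most genotypes. Pgls was at 8.87 to 15.1 CPM in D45/KO, 6.22 to 15.2 in D45/D45, 7.003 to 25.1 in WT/KO, 9.40 to 26.9 in WT/D45 and 3.33 to 21.5 in WT/WT. Its log2 fold change was -0.57 ± 0.55 (SE) in D45/KO against WT/KO and 0.04 ± 0.62 against WT/WT. Pgd was at 28.4 to 39.1 CPM in D45/KO, 16.7 to 21.2 in D45/D45, 13.3 to 55.4 in WT/KO, 11.5 to 28.8 in WT/D45 and 22.3 to 23.0 in WT/WT. Its D45/KO libraries lay above those of D45/D45, as for 2.48% of all genes, and above those of WT/WT, as for 6.69%, while the WT/KO libraries reached from below to above them. The log2 fold change of Pgd was 0.03 ± 0.38 in D45/KO against WT/KO and 0.61 ± 0.44 against WT/WT, and -0.27 ± 0.46 in D45/D45 against WT/WT, none of them called (edgeR adjusted p = 0.997, 0.818 and 1).

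Tkt, the thiamine-dependent transketolase, had its highest means in both genotypes that lack a WT allele, though edgeR with genotype alone did not call it. The D45/KO libraries had 606, 333, 705 and 781 CPM. D45/D45 had 394, 717 and 663 CPM, and WT/KO had 231, 165, 220, 361 and 527 CPM. WT/D45 had 292, 258 and 437 CPM, and WT/WT had 200, 213 and 287 CPM. Every D45/KO and D45/D45 library lay above every WT/WT library, as for 6.69% and 7.38% of all genes. The lowest D45/KO library, replicate 2 (333 CPM), lay within the ranges of WT/KO and of WT/D45. So did the lowest D45/D45 library, replicate 1 (394 CPM). Tkt had a log2 fold change of 1.38 ± 0.43 (SE) in D45/KO and 1.34 ± 0.45 in D45/D45, each against WT/WT. Set against WT/KO, D45/KO had 1.01 ± 0.36. None was called by edgeR (adjusted p = 0.249, 1 and 0.627). The covariate fit gave 1.48 ± 0.28, 1.23 ± 0.29 and 1.02 ± 0.23, and both D45/KO values passed (edgeR adjusted p = 0.00333, 0.0704 and 0.0212), where 4.13% of all genes were called against WT/WT and 2.83% against WT/KO. In D45/D45 against WT/WT 0.395% of all genes were called in that fit. In the low libraries alone Tkt passed in D45/D45 against WT/WT, with 2 libraries each (1.41 ± 0.29, edgeR adjusted p = 0.020, where 1.36% of all genes were called). The single low D45/KO library gave 1.64 ± 0.34 against the 2 of WT/WT (edgeR adjusted p = 0.0114, among 2.35% of all genes), with no replicate behind it. DESeq2 called Tkt in D45/KO against WT/WT (1.31 ± 0.33, adjusted p = 0.0035), among 421 genes called, where edgeR called 83.

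Against WT/WT, Tkt had a log2 fold change of 0.37 ± 0.40 (SE) in WT/KO and 0.50 ± 0.44 in WT/D45, neither called. The summed megakaryocyte markers were also higher in D45/KO and D45/D45 than in WT/WT, in every library. With the covariate 3 of the 8 (Itga2b, Vwf and Gp9) were called higher in D45/KO, against WT/WT and against WT/KO. In these fits 4.13% and 2.83% of all genes were called. With genotype alone 0 of the 8 were called, beside 0.619% and 0.172% of all genes. Their log2 fold change was then positive for 5 of the 8 against WT/WT (median 0.71) and for 3 against WT/KO (median -1.02). Itga2b alone averaged 450 CPM in D45/KO, where the summed level had a median of 544 CPM. The part of these markers in the level of Tkt was not tested.

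Taldo1, transaldolase, was the most abundant of the 9 per kilobase. Within each genotype it divided with the B cell markers, a split whose share over all genes was not counted. It was at 574 to 966 CPM in D45/KO, 348 to 1353 in D45/D45, 196 to 1091 in WT/KO, 271 to 943 in WT/D45 and 251 to 1556 in WT/WT. Outside D45/KO it was at 196 to 348 CPM in high libraries and at 649 to 1556 CPM in low ones, while the 3 high D45/KO libraries had 574, 630 and 724 CPM. Its log2 fold change was 0.52 ± 0.60 (SE) in D45/KO against WT/KO and -0.29 ± 0.68 against WT/WT, neither called. In the high libraries alone Taldo1 was higher in D45/KO than in WT/KO (1.42 ± 0.30, edgeR adjusted p = 0.0221), beside a lower B cell marker level and among 7.55% of all genes called. Rpia, the isomerase that makes ribose 5-phosphate, was at 42.0 to 98.3 CPM in D45/KO, 75.3 to 109 in D45/D45, 30.3 to 87.8 in WT/KO, 54.6 to 84.1 in WT/D45 and 34.7 to 60.8 in WT/WT. Its log2 fold change was 0.53 ± 0.32 in D45/KO against WT/KO and 0.64 ± 0.37 against WT/WT. For D45/D45 over WT/WT, where its libraries lay above without overlap, as for 7.38% of all genes, it was 0.85 ± 0.40, and it was not called in any of the 3 (edgeR adjusted p = 0.927, 0.705 and 1).

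**Figure D3:**
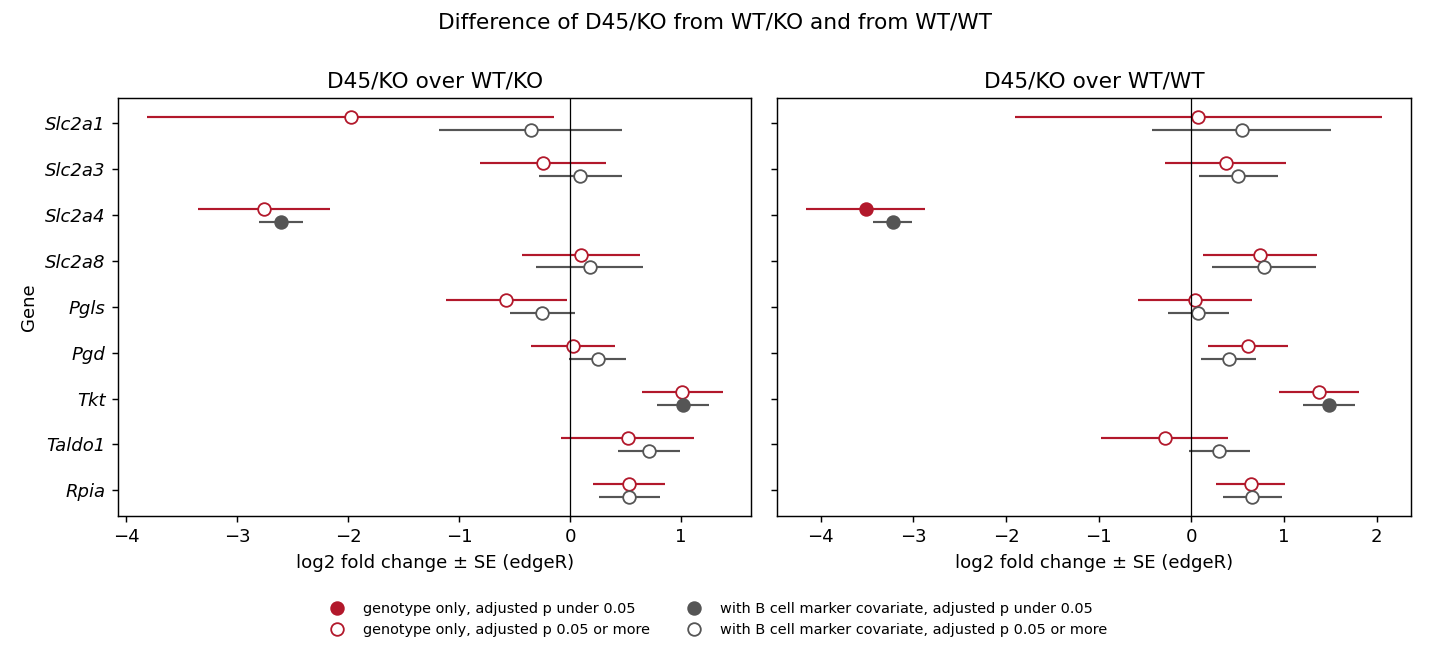
Log2 fold change with its SE (bars) of the 9 genes in D45/KO over WT/KO (left) and over WT/WT (right), from edgeR with genotype as the only term and with the B cell marker level added as a covariate. Filled points have an adjusted p under 0.05: with genotype alone this is Slc2a4 against WT/WT at -3.52, and with the covariate Slc2a4 and Tkt in both panels.

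Over the 9 genes, the median log2 fold change in D45/KO against WT/KO was 0.03, beside -0.15 for all genes tested. In D45/KO against WT/WT it was 0.37 beside 0.07, in D45/D45 against WT/WT 0.07 beside 0.01, and, again over WT/WT, 0.58 beside 0.26 for WT/KO and 0.46 beside 0.10 for WT/D45. Libraries did not overlap for Slc2a4 in D45/KO against WT/KO (below, with 0.925% of all genes) and overlapped for the other 8, where 1.78% of all genes lay above without overlap. Against WT/WT, D45/KO libraries did not overlap for Pgd and Tkt (above, with 6.69% of all genes) and Slc2a4 (below, with 3.55%), and D45/D45 libraries for Tkt and Rpia (above, 7.38%) and Pgd (below, 3.65%). For WT/KO and WT/D45 set against WT/WT all 9 genes overlapped, where 0.985% and 2.86% of all genes lay above and 0.627% and 1.19% below without overlap. edgeR called 0 of the 9 genes in D45/D45, WT/KO and WT/D45 against WT/WT, and 0% of all genes. At an unadjusted p under 0.05 the counts were 2, 0 and 0 of the 9 genes, with 4.07%, 4.27% and 1.45% of all genes, and DESeq2 and limma-voom also called 0 of the 9 in each.

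The genes whose log2 CPM was most like that of Slc2a4 over the 18 libraries were Slc1a5, a neutral amino acid transporter, and Apol8, each with a Pearson r of 0.98. The r was 0.99 and 0.94 within the 9 high libraries and 0.96 and 0.98 within the 9 low ones. For Slc2a1 they were Sesn3 (0.98), a stress-inducible sestrin, and D8Ertd82e (0.97), for Tkt Rgs12 (0.97) and Gtf2f1 (0.96) and for Taldo1 Usp4 and Zfand6 (0.99 each). Slc2a3 was most like Got2 (0.94) and Sh2b1 (0.94), Slc2a8 like Mrps5 (0.92) and Dolpp1 (0.90), Pgls like Tomm34 (0.96) and Dgkz (0.96), Pgd like Zfp281 (0.91) and the glycolytic enzyme Aldoa (0.91), and Rpia like Srsf9 (0.94) and Hnrnpl (0.93). These are the best of all genes tested, and the libraries share genotype, depth and B cell marker level.

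Of 8 other Slc2a genes, Slc2a6 and Slc2a9 were tested and Slc2a2, Slc2a5, Slc2a7, Slc2a10, Slc2a12 and Slc2a13 failed the filter, and no library had more than 4.78 CPM of any of the 8. Of 9 further genes around the pathway, H6pd, Rpe, Shpk, Rbks, Prps1, Prps2 and Pgm2 were tested and Tktl1 and Tktl2 were not. None of these 9 tested genes was called in any of the 5 comparisons, where 0.172%, 0.619%, 0%, 0% and 0% of all genes were. Rpe, the epimerase of the non-oxidative branch, was at 15.1 to 29.5 CPM over all libraries, and Prps1, which makes the nucleotide precursor PRPP, at 11.9 to 48.6 CPM.

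Of 15 genes that use or make NADPH or keep glutathione, 0 were called in any comparison by edgeR with genotype alone, where at most 0.619% of all genes were. With the B cell marker covariate 3 were higher in D45/KO than in WT/KO, where 2.83% of all genes were called. They were Gpx4, a peroxidase of lipid peroxides (1.11 ± 0.22 SE on the log2 scale), Txnrd1, thioredoxin reductase (0.76 ± 0.18), and Nfe2l2, the transcription factor NRF2 of the antioxidant response (0.80 ± 0.21), with edgeR adjusted p-values of 0.00712, 0.029 and 0.0486. Gpx4 averaged 302 ± 72.4 CPM in D45/KO, against 149 ± 82.6 CPM in WT/KO (SD, n = 4 and 5). None of the 3 was called in D45/KO against WT/WT with the covariate, where 4.13% of all genes were.

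Of 15 genes tied to glucose uptake and its first steps, 0 were called with genotype alone, again beside at most 0.619%. With the covariate 2 of the 15 were called in D45/KO against WT/KO, beside 2.83% of all genes. Hk1, the hexokinase of red cells, was higher (0.82 ± 0.21 SE on the log2 scale, edgeR adjusted p = 0.041). Epb4.9, which encodes dematin, a membrane skeleton protein that binds GLUT1 in human red cells, was lower (-1.79 ± 0.24, edgeR adjusted p = 0.000263). Against WT/WT the covariate fit gave Epb4.9 -2.52 ± 0.26 (edgeR adjusted p = 9.82e-06), the 1 gene of the 15 called there, beside 4.13% of all genes. Epb4.9 averaged 197 ± 116 CPM in D45/KO, 757 ± 641 CPM in WT/KO and 1448 ± 681 CPM in WT/WT (SD, n = 4, 5 and 3).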

How the data were processed

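Per the labels, RNA was taken with Trizol from spleen cells sorted for CD71 and TER119, and the Swift Rapid RNA kit gave the libraries. Per the submitters' processing notes, HISAT2, featureCounts, limma and the mm9 build were used. Versions, roles and the strand setting are not given in the sources used, so reads of overlapping antisense genes cannot be told apart. The deposited values are raw counts per gene symbol that the authors made for 18 libraries. A second deposited table of processed counts was not used.

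Genotypes in the labels gave the groups. The analysis used edgeR 4.0.16 in R 4.3.3, with filterByExpr by genotype, TMM, and glmQLFit (robust off) on all 18 libraries with a term for genotype alone. A call needs an adjusted p (Benjamini-Hochberg, over all 13405 genes) under 0.05. Each SE is approximate, being the size of the log2 fold change divided by the square root of F. CPM used TMM-adjusted library sizes, log2 CPM a prior count of 2, and lengths the merged exons of the reference annotation. Libraries were divided at a B cell marker level of 3. Alternatives were DESeq2 1.42.0, limma-voom (limma 3.58.1), other scalings and filters, a covariate, subsets of libraries and single libraries left out. The procedure was tested on simulated data, where most of the changes put in were not called, so a gene that was not called is not shown to be unchanged.

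The members, gene lists, marker lists and settings were chosen with earlier results of these data known. The text names 9 genes of the rule in every comparison, the called genes of each list (up to 3 per direction), the 2 genes most alike to each member, and tested and untested genes of the Slc2a and pentose phosphate lists. Genes called only with the covariate, the Itga2b, Vwf, Gp9, Pf4, Ppbp, Tfrc and Klf1 levels, and the promoters shown were chosen after their values were seen. 1 further gene of the rule, and some of the marker genes, are not reported here. By the rule for called genes of the marker lists, Lck, a T cell kinase that is no member, is named too. It was lower in D45/KO than in WT/WT (log2 fold change -1.43 ± 0.31 SE, edgeR adjusted p = 0.0454). Lck was the only 1 of 10 T and NK cell markers called there, beside 0.619% of all genes. Of the 10, 4 had a positive log2 fold change (median -0.09). In the low WT/WT libraries Lck averaged 25.9 CPM and the T cell marker Cd3e 0.233 CPM. Depth per library was 9.36 to 56.3 M counts, limits from 0 counts cover counting error only, and no 2 libraries of a group agreed within sampling noise.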

Additional observations from a re-analysis of the deposited data

How the results depend on the processing

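In D45/KO against WT/KO, where 0 of the 9 genes were called, DESeq2 called 1, DESeq2's size factors in edgeR 1, the B cell marker covariate 2, the replicate block 2 (Slc2a4 at -2.14 and Tkt at 1.32, edgeR adjusted p = 0.0133 and 0.0371), the low libraries alone 1 and the high ones alone 4. In D45/KO against WT/WT, where 1 was called, DESeq2 called 2, the covariate 2, the low libraries alone 2, and fits without a replicate 0 to 1. In D45/D45 against WT/WT the low libraries alone called 1. The cause was not tested. Over all genes, the calls in D45/KO against WT/KO numbered 23, against 185 by DESeq2, 38 with its size factors, 67 by limma-voom, 380 with the covariate, 128 with the block and 6 with the 2 groups alone. In D45/KO against WT/WT they numbered 83, against 421, 126, 75, 553, 209 and 59. The high libraries alone, with 3 of each genotype, gave 1103 calls in D45/KO against WT/KO, or 7.55% of all genes.

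The log2 fold changes of Slc2a4, Tkt and Rpia in both D45/KO comparisons kept their direction under every setting run. Some small values turned. In D45/KO against WT/KO, Slc2a3 had 0.093 with the covariate and 0.79 in low libraries. Slc2a8 had -0.046 by DESeq2, -0.038 with its size factors, -0.10 by limma-voom, -0.031 in high libraries and -0.12 to 0.22 without a replicate. Pgls had 0.32 in low libraries. Pgd had -0.18 by DESeq2 and with its size factors, -0.090 with the block, -0.29 in high libraries and -0.18 to 0.28 without a replicate. In D45/KO against WT/WT, high libraries gave Slc2a1 -1.10, Slc2a3 -0.75, Slc2a8 -0.29, Pgls -0.87 and Taldo1 1.30. Pgls had -0.043 by DESeq2, -0.042 with its size factors and -0.10 by limma-voom, and Taldo1 0.30 with the covariate. Without a replicate Slc2a1 ranged from -0.50 to 9.42, Slc2a3 from -0.013 to 1.61, Pgls from -0.39 to 0.97 and Taldo1 from -0.73 to 0.40. In WT/KO against WT/WT, Tkt had -0.13 with the block and -0.061 in high libraries. In WT/D45 against WT/WT, Slc2a4 had -0.047 by DESeq2 and with its size factors, -0.11 with the covariate, -0.012 with the block, -0.032 with the 2 groups alone, -0.46 in high libraries and -0.23 to 0.41 without a replicate. DESeq2's size factors moved the median of all genes from -0.15 to -0.26 in D45/KO against WT/KO and from 0.01 to -0.10 in D45/D45 against WT/WT.

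Replicate numbers are shared between genotypes but did not pair the libraries. Deviations from the group means correlated at -0.46 to 0.77 over 31 same-numbered pairs, with 18 over 0.1, and 9 of 17 libraries correlated best with one of their own number. Replicate 1 was high in B cell markers in every genotype. With 1 library of a group in some subsets, that library is assumed to vary like the others. Depth limits Slc2a1, with 0 to 15 counts in low libraries.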

Other observations

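Summed per kilobase, Pgls and Pgd were at 20.7 to 28.4 CPM per kb in D45/KO and 13.5 to 22.5 CPM per kb in D45/D45, with overlap. WT/KO had 13.1 to 42.8, WT/D45 13.2 to 35.8 and WT/WT 12.9 to 28.4 CPM per kb. The 3 non-oxidative enzymes summed to 588 to 1005 CPM per kb in D45/KO and 419 to 1245 CPM per kb in D45/D45, with overlap. WT/KO had 229 to 948, WT/D45 330 to 802 and WT/WT 279 to 1260 CPM per kb of these.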
